A study of Mus musculus with 6 samples.

Results

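Described here are 10 genes that act in lipolysis, fatty acid uptake and the control of both in heart capillaries: Lpl, Gpihbp1, Cd36, Fabp4, Fabp5, Mgll, Aqp7, Pparg, Meox2 and Tcf15. They were taken as a list of symbols, and all 10 were present among the 31055 genes of the deposited count matrix. The cells came from hearts of C57BL/6 mice at 3 to 6 months of age: myocytes were removed, viable cells with EGFP were sorted, and each cell's transcripts were tagged at the 3′ end and counted as unique molecular identifiers (UMIs) on the 10x Genomics platform. The control group held 3 libraries of genotype Wt1CreERT2:Rosa26mTmG, and the group called Dsp_het held 3 libraries of genotype Wt1CreERT2:Rosa26mTmG:DspW/F, which adds 1 conditional allele of the desmosome gene Dsp to 1 wild-type allele. All 6 libraries therefore carry a Cre driven from Wt1, a gene of the epicardium, and a reporter that turns on GFP after Cre has acted, so recombination is limited to cells that expressed the Cre and their progeny. The labels used here state neither when the Cre was induced nor how many mice went into each library. The p-values below measure the spread between these libraries.

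In the heart, triglyceride-rich lipoproteins are hydrolysed on the luminal face of capillaries. Lipoprotein lipase, the product of Lpl, is made by cells of the parenchyma and carried across the endothelium by GPIHBP1, which also anchors it at the vessel wall. The fatty acids released are taken up through CD36 and carried in the cytosol by the fatty acid binding proteins FABP4 and FABP5. MGLL cleaves monoacylglycerol and AQP7 is a channel for glycerol. PPARG is a nuclear receptor that binds fatty acids, and the homeobox factor MEOX2 and the basic helix-loop-helix factor TCF15 are known as a pair of regulators of fatty acid uptake in heart endothelium.

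The 6 libraries held 7573157 to 17083660 UMIs, and 16303 of 18283 barcodes were kept. The labels name the sorted cells as derived from the epicardium, yet 10124 kept cells fell in clusters with an endothelial profile and 1573 in clusters with an epicardial profile, and the mean level of the GFP transcript was 3738 CPM (counts scaled to the same total in every sum) in the former and 1076 CPM in the latter. The other classes were fibroblast-like (2115 cells), macrophage-like (630), pericyte-like (428), cycling (239), cardiomyocyte-like (210) and Schwann-like (31), and 953 cells led by haemoglobin genes stayed unnamed. Cell barcodes were shared between libraries: among 13183 different ones, 1689 were found more than a single time across libraries and 530 in each of the 6. The occurrences outside the library with most of their UMIs are called copies, and they made up 4.54% of the endothelial-like cells but 42.6% of the fibroblast-like, 61.7% of the epicardial-like and 67.5% of the macrophage-like cells. They held 0.906% to 12.7% of the UMIs of these classes. Dsp itself was read at 1.40, 2.56 and 2.35 CPM in the control libraries and 1.29, 1.56 and 3.75 CPM in the Dsp_het libraries. The labels do not say which exons the conditional allele removes, so 3′ counts do not check the genotype. By the level of Xist, each group held 1 female and 2 male libraries.

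Clusters were computed with the 10 genes and a fixed list of 108 other genes of lipid handling left out, so that their levels did not shape the clusters. The 8 endothelial-like clusters were capillary (2377 cells, with Car4 and Rgcc among its leading genes), arterial (1314, Hey1 and Gja4), venous (1014, Vwf and Nr2f2), angiogenic (1517, Apln and Kit), interferon (815, Ifit1 and Isg15), endocardial (314, Cytl1 and Npr3) and 2 that kept the names of their leading genes, Cyp26b1/Timp4 (965) and Lars2/Syne1 (1808). Ccl21a, a lymphatic marker, led the venous cluster together with Vwf. The Lars2/Syne1 cluster was shallow, with a median of 1882 UMIs per cell against 3421 in the capillary cluster, and its median mitochondrial share was 4.42% against 3.07%. The endocardial cluster had a median of 961.5 UMIs, 57.6% of its cells were copies, and it had enough cells (at least 20) in 5 libraries only.

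Levels are given as CPM of the UMIs summed over the cells of a library and cluster, as mean ± SD over libraries. They compare the same gene between cells, since 3′ counts of different genes are not on a common scale. All 10 genes were read in each endothelial-like cluster, although in the endocardial cluster Aqp7 had no UMI in control replicate 1 and Meox2 none in Dsp_het replicate 2. The capillary cluster held the highest mean level of only 3 of them, Gpihbp1, Pparg and Tcf15. The arterial cluster was highest for Aqp7 and Mgll, the venous cluster for Meox2, the Cyp26b1/Timp4 cluster for Fabp4, the Lars2/Syne1 cluster for Cd36 and Lpl, and the endocardial cluster for Fabp5. These leading clusters were the same with 1 library per barcode, with at least 1000 UMIs per cell and with a mean over cells in place of sums. For 9 of the 10 genes the ranges of the leading cluster and the next overlapped, and the exception was Cd36. These orders rest on 1 set of clusters. In a clustering that did not leave the lipid genes out, Timp4, Cyp26b1 and Cd36 were among the leading genes of the capillary cluster. The Lars2/Syne1 cluster held 988 cells in that clustering, and levels were not taken there.

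**Figure D1:**
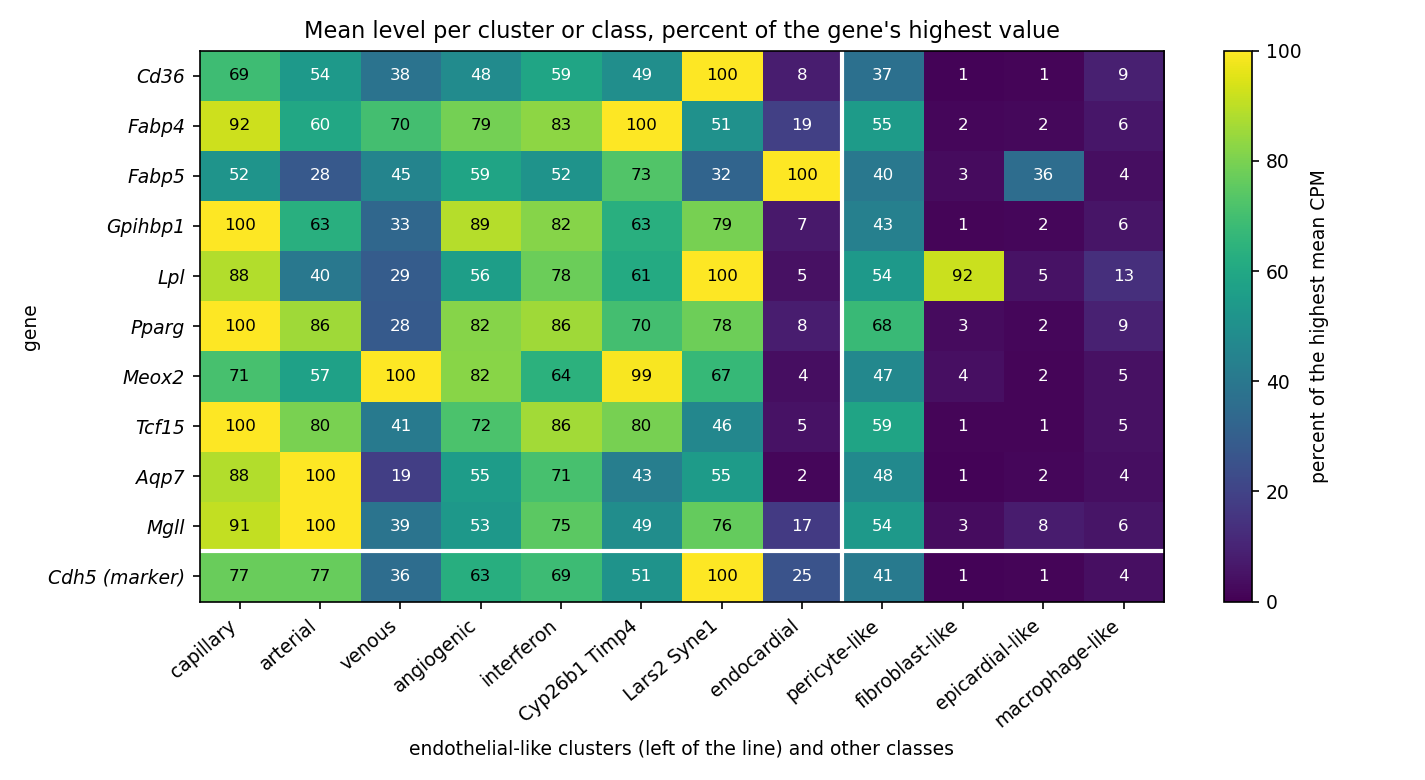
Mean CPM of each gene (rows) in the 8 endothelial-like clusters and 4 other classes (columns), as a percent of that gene's highest mean, with the endothelial marker Cdh5 below for comparison. Fabp5 had its maximum in the endocardial column (3851 CPM), and Lpl in fibroblast-like cells (890 CPM) came next to its maximum in the Lars2/Syne1 cluster (970 CPM).

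Gpihbp1, the carrier and anchor of lipoprotein lipase, ranked from capillary to vein. Its level was 2358 ± 178 CPM in the capillary cluster, 2095 ± 131 in the angiogenic, 1930 ± 172 in the interferon, 1870 ± 213 in the Lars2/Syne1, 1488 ± 113 in the arterial and 1486 ± 210 in the Cyp26b1/Timp4 cluster (SD, n = 6). It was 787 ± 186 CPM in the venous cluster and 158 ± 65.9 in the endocardial cluster (n = 5). Capillary cells exceeded venous cells in 6 of 6 libraries, by 3.13 ± 0.73-fold, and the lowest Cyp26b1/Timp4 value (1270 CPM) lay above the highest venous value (1051 CPM). The lowest venous value (488 CPM) lay above the highest endocardial value (240 CPM) in turn, while neighbours among the first 6 clusters in this order overlapped.

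Lpl, the lipase itself, separated the vessel types as well but varied more between libraries. In the capillary cluster it was read at 1116, 544 and 672 CPM in the control libraries and 604, 1078 and 1127 CPM in the Dsp_het libraries. Values near 1100 CPM came from control replicate 1 and Dsp_het replicates 2 and 3, and the other 3 libraries lay between 544 and 672 CPM, so the genotypes were interleaved. The mean was 970 ± 211 CPM in the Lars2/Syne1, 857 ± 277 in the capillary, 753 ± 212 in the interferon, 387 ± 111 in the arterial, 284 ± 93.9 in the venous and 44.6 ± 30.8 in the endocardial cluster. Within each library the capillary level exceeded the arterial level, by 2.21 ± 0.31-fold, and the venous level, by 3.30 ± 1.28-fold. Over all endothelial-like cells the coefficient of variation of Lpl between libraries was 25.1%, the largest of the 10 genes, against 7.11% for Mgll and 8.54% for Fabp4.

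Cd36, the fatty acid translocase, stood highest in the Lars2/Syne1 cluster at 4477, 4595 and 4070 CPM in control and 4802, 5511 and 4113 CPM in Dsp_het libraries. All 6 of these values were above the capillary values, which ran from 2393 to 3639 CPM, with a mean ratio of 1.47 ± 0.18 between the clusters. Cd36 was 2694 ± 337 CPM in the interferon, 2469 ± 500 in the arterial, 1750 ± 401 in the venous and 368 ± 226 in the endocardial cluster. Capillary cells exceeded venous cells 1.85 ± 0.24-fold, in 6 of 6 libraries. The gene spans 107 kb on the minus strand (chr5:17781690-17888801, GRCm38).

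The shallow Lars2/Syne1 cluster favoured long genes as a whole. When 6444 genes of at least 20 CPM were ranked by the length of the gene span, the median log2 ratio of this cluster to the capillary cluster was -0.28, 0.13, 0.41 and 0.62 in 4 groups of nearly equal size from short to long. Cd36, in the longest group, had a ratio of 0.58 on the same scale, and Lpl, in the third group, 0.18. Fabp4, with a span of 4.49 kb, had -0.87, and Tcf15, with 5.54 kb, had -1.19, both in the shortest group. Pparg, Meox2 and Mgll, also in the longest group, had -0.37, -0.10 and -0.22. The part that span plays in the high Cd36 of this cluster was not tested.

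Fabp4 and Fabp5, neighbours 187.5 kb apart on chromosome 3 (chr3:10204088-10208576 and chr3:10012548-10016607, GRCm38), encode related binding proteins and were distributed unlike each other. Fabp4 was 29390 ± 3976 CPM in the Cyp26b1/Timp4 cluster, 27122 ± 2036 in the capillary, 20573 ± 1656 in the venous, 17589 ± 1330 in the arterial, 14915 ± 1774 in the Lars2/Syne1 and 5619 ± 1558 in the endocardial cluster. It had a UMI in 2104 of 2104 capillary cells thinned to 2000 UMIs. Fabp5 was lowest in the arterial cluster, at 1069 ± 158 CPM, and higher in the capillary (2000 ± 346), the Cyp26b1/Timp4 (2811 ± 459) and the endocardial cluster (3851 ± 789, n = 5). The endocardial level exceeded the arterial level 3.51 ± 0.60-fold and the capillary level 1.91 ± 0.31-fold, in 5 of 5 libraries each.

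In the endocardial cluster the 5 libraries read Fabp5 at 4369 and 4899 CPM in control replicates 1 and 3 and at 3777, 3145 and 3064 CPM in Dsp_het replicates 1 to 3. The ratio of Fabp4 to Fabp5 UMIs was 11.4 ± 1.16 over all endothelial-like cells, 16.6 ± 1.55 in the arterial cluster and 1.46 in the endocardial cluster. Of the 10 genes, Fabp5 was the only one above its class mean in endocardial cells, at 192% ± 22.5 of the endothelial-like level. The 14 endothelial markers summed stood there at 63.8% ± 3.36, Cd36 at 14.5% ± 8.33 and Lpl at 7.51% ± 5.92.

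**Figure D2:**
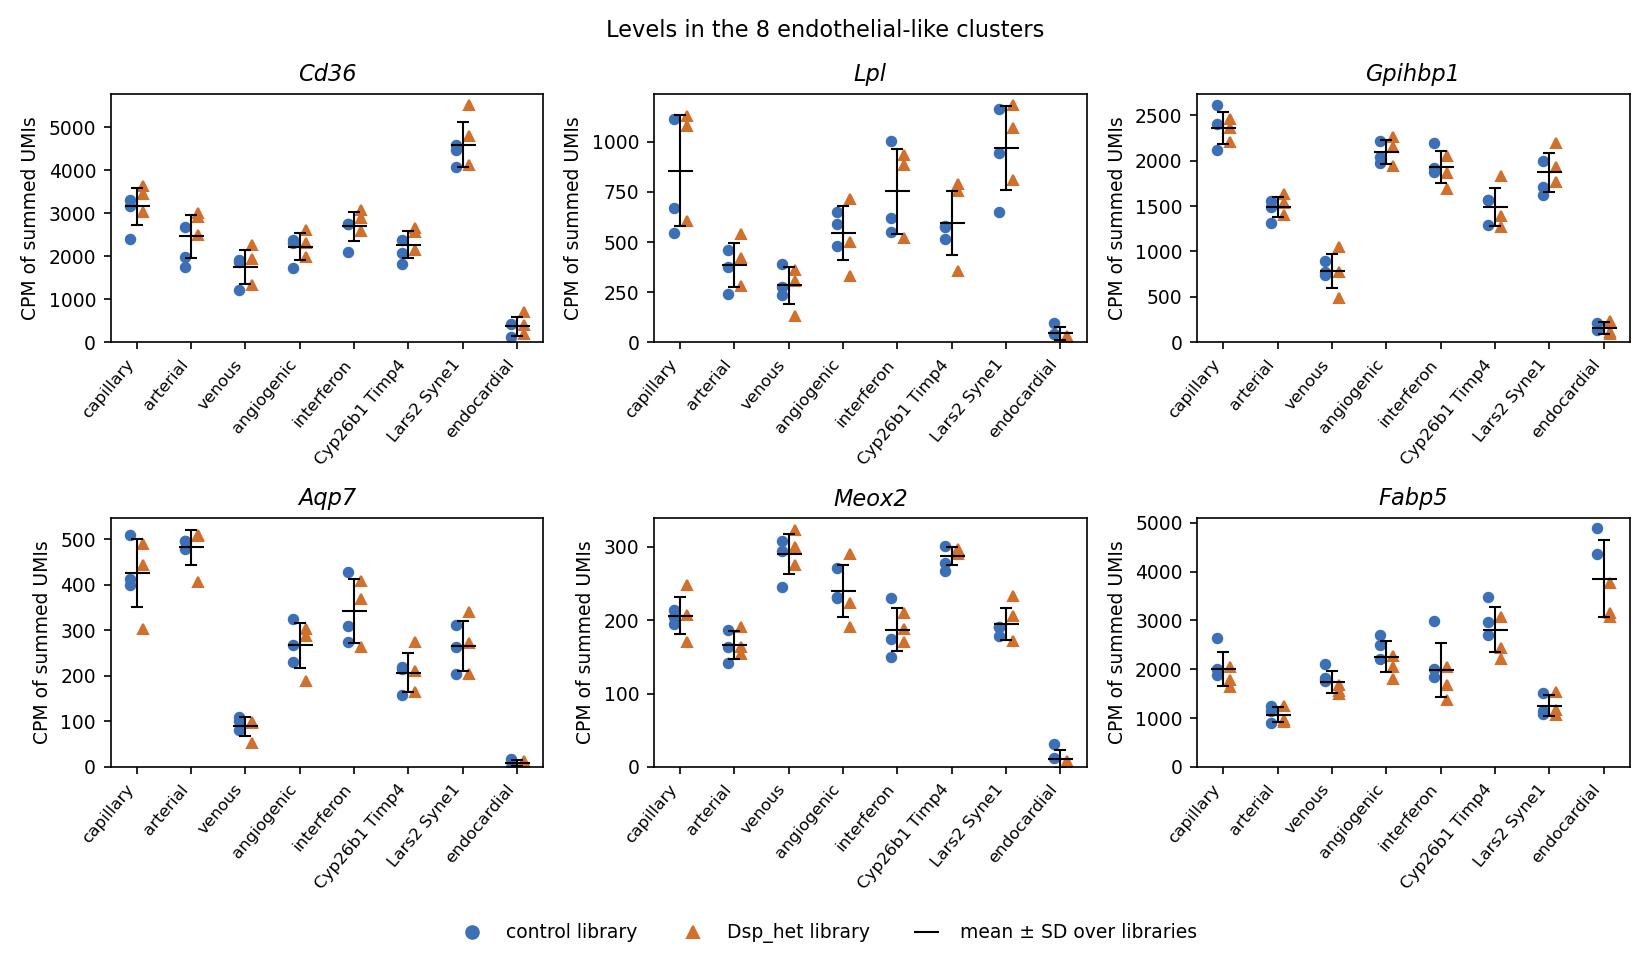
CPM of 6 genes in the 8 endothelial-like clusters, 1 point per library (circles control, triangles Dsp_het), with the mean ± SD over libraries as bars and y axes that start at 0. Gpihbp1, Lpl and Aqp7 are low in the venous and endocardial clusters, Meox2 is high in the venous cluster, and Fabp5 is highest in the endocardial cluster.

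Aqp7 and Mgll, which handle the glycerol and monoacylglycerol left by lipolysis, were the genes with their highest mean in the arterial cluster. Aqp7 was 482 ± 38.5 CPM in arterial and 426 ± 74.0 CPM in capillary cells, with the arterial value higher in 5 of 6 libraries. It was 89.4 ± 20.8 CPM in venous cells, 4.86 ± 0.59-fold below the capillary level in 6 of 6 libraries, the steepest capillary to venous step of the 10 genes by their means. Mgll was 2125 ± 215 CPM in arterial, 1926 ± 286 CPM in capillary and 821 ± 135 CPM in venous cells. Both genes had Cxcl12, a chemokine gene and one of the fixed arterial markers, as their closest match among 6176 genes across 47 sums per cluster and library, with Pearson r = 0.97 for Aqp7 and 0.96 for Mgll, and r between Aqp7 and Mgll was 0.94. In these clusters, however, Cxcl12 and Aqp7 were both among the leading genes of the capillary cluster, and neither was among those of the arterial cluster. The likeness was not particular to this pair, since r was 0.95 between Aqp7 and Pparg and 0.87 between Aqp7 and Cd36. These r values are descriptions, since sums of the same library share depth and cells of origin. The sums include those of the endocardial cluster, which had the lowest endothelial-like means of Aqp7 and Mgll. An r without that cluster was not taken.

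The promoter windows of Aqp7 and Mgll are shown because both genes had their highest mean in the arterial cluster. That of Cd36, which had its highest mean in another cluster, is shown beside them. Each is the 250 bases before a start in RefSeq (GRCm38.p6), read 5′ to 3′ on the strand of the gene (for Aqp7 and Mgll the first listed of 2 starts), and capitals mark matches on either strand to AGGTCA, the core hexamer of nuclear receptor sites, or to CANNTG, the E-box of basic helix-loop-helix factors.
Aqp7, chr4:41048137-41048386, minus strand: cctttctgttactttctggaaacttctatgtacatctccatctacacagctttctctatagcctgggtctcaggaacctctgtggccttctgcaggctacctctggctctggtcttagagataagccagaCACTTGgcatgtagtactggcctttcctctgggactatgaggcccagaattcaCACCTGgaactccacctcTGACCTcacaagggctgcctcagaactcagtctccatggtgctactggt
Mgll, chr6:88724162-88724411, plus strand: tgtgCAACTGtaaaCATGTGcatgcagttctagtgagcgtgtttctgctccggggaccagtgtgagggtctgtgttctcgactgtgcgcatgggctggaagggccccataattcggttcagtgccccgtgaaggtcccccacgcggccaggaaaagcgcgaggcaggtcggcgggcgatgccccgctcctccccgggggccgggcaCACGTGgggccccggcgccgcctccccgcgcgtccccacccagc
Cd36, chr5:17835897-17836146, minus strand: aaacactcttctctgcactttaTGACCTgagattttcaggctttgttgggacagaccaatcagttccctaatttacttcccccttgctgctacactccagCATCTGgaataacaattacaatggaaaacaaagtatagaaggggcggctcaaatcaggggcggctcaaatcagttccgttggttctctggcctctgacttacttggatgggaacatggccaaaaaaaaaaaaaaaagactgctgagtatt

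Aqp7 had an AGGTCA match that began 49 bases before the start and E-boxes at 120 and 67 bases, and Mgll had E-boxes at 246, 236 and 44 bases and no AGGTCA match. The window of the second Aqp7 start (chr4:41047963-41048212) overlaps the one shown and had AGGTCA matches at 223 and 101 bases and E-boxes at 241 and 35 bases, and that of the second Mgll start (chr6:88724454-88724703) had neither motif. Cd36 had 1 AGGTCA match at 228 bases and 1 E-box at 150 bases, and its window lies inside the annotated span of the gene, because RefSeq places this start downstream of the start of the GENCODE span. Among 32851 windows of the same length over all genes, 14.02% held AGGTCA and 66.2% held CANNTG, so the E-boxes are common. The homeobox core TAATTA, found in 4.84% of windows, was in none of the 9 windows of the 5 genes covered by the table (Cd36, Pparg, Meox2, Aqp7 and Mgll). A match is a stretch of letters and not evidence of binding.

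Pparg and Tcf15 shared the capillary peak, and Meox2 did not. Pparg was 119 ± 14.4 CPM in capillary, 102 ± 20.7 in arterial and 33.5 ± 4.38 in venous cells, a capillary to venous ratio of 3.58 ± 0.42 (6 of 6 libraries). Tcf15 was 1322 ± 204 CPM in capillary, 1054 ± 158 in arterial and 541 ± 129 in venous cells, with a ratio of 2.51 ± 0.43 (6 of 6 libraries). Meox2 ran the other way, at 291 ± 27.3 CPM in venous, 288 ± 12.6 in Cyp26b1/Timp4, 206 ± 25.6 in capillary and 166 ± 18.8 in arterial cells. The venous level of Meox2 exceeded the arterial level 1.75 ± 0.07-fold and the capillary level 1.42 ± 0.13-fold, each in 6 of 6 libraries. The 2 partner factors therefore peaked in different clusters, and their r over the 47 sums was 0.86. In the endocardial cluster Pparg, Meox2 and Tcf15 were read with only 13, 17 and 100 UMIs in all, and Aqp7 with 13.

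The nearest patterns of the other genes were found in the same way. Pparg was most like Rgcc (r = 0.97), a fixed capillary marker, Gpihbp1 was most like Chek2 (0.97), with Sparcl1, a capillary marker, in the third place (0.96), and Tcf15 was most like Smco4 (0.96). Cd36 was most like Dach1 (0.95), Lpl like Ccdc85a (0.95), Meox2 like 1700025G04Rik (0.95) and Fabp4 like Gng11 (0.97). The 3 genes nearest to Fabp5 all encode ribosomal proteins, Rpl38, Rpl39 and Rps15a, with r from 0.77 to 0.79, and Fabp5 had a negative r with each of the other 9 genes, from -0.71 with Mgll to -0.16 with Fabp4. The remaining 36 pairs all had a positive r. Every r here includes the sums of the endocardial cluster, and none was taken without it. Leaving that cluster out lowered the fold from highest to lowest cluster mean for every gene. This fold fell from 55.2 to 5.39 for Aqp7, 26.4 to 1.75 for Meox2, 21.3 to 2.44 for Tcf15 and 3.60 to 2.63 for Fabp5. How far the signs and sizes of r rest on that cluster was not tested.

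Outside the endothelium, the question was which of the 10 genes stood above the small endothelial signal found in every class. That signal was measured as the level of the 14 fixed endothelial markers summed, in percent of their level in the endothelial-like cells of the same library. It was 3.85% ± 1.19 in fibroblast-like, 6.00% ± 1.31 in epicardial-like and 7.44% ± 2.83 in macrophage-like cells (SD, n = 6). In pericyte-like cells it was 65.6% ± 6.49, and the 10 genes stood at 59.8% (Gpihbp1) to 95.1% (Pparg), with Lpl at 86.2% ± 17.5 and Cd36 at 65.1% ± 11.6. The doublet caller marked 35 cells, too few to have worked, so a level of that size in pericyte-like, cardiomyocyte-like (markers at 83.6% ± 11.3, 3 libraries) and unnamed cells (79.2% ± 8.70) cannot be assigned to those cells.

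Lpl was the exception in fibroblast-like cells. It was read there at 815, 1082 and 972 CPM in the control libraries and 1094, 702 and 675 CPM in the Dsp_het libraries, which is above the endothelial-like level of the same library in 5 of 6 libraries and 162% ± 73.4 of it on average. The other 9 genes were at 1.64% (Aqp7) to 5.78% (Fabp5) on average, among them Gpihbp1 at 1.87% ± 0.86 and Cd36 at 1.78% ± 0.97. Besides Lpl, only Fabp5 and Mgll (4.77% ± 1.31) were above the marker share in 6 of 6 libraries. The ratio of Lpl to Gpihbp1 UMIs was 0.35 ± 0.07 in endothelial-like and 31.5 ± 11.7 in fibroblast-like cells. After thinning to 2000 UMIs, 76.6% of 1179 fibroblast-like cells had an Lpl UMI (95% Clopper-Pearson interval 74.1% to 79.0%, which covers counting error only), against 53.8% of 8213 endothelial-like cells, and the marker Cdh5 was found in 2.04% and 85.3%. Without thinning, the Lpl shares were 69.9% and 65.3%, at median depths of 4759 and 3624.5 UMIs.

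Lpl was present in each of the 3 clusters of that class. Its pooled level was 941 CPM in the largest (1108 cells), 756 CPM in a shallow cluster of 935 cells in which 88.6% of UMIs came from copies, and 1361 CPM in the smallest (72 cells, led by Ccl11). With 1 library per barcode the mean was 896 ± 196 CPM. Of 8 adipocyte markers, 5, among them Adipoq, had no UMI in fibroblast-like cells, and the summed list reached at most 1.81 CPM in any library.

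Fabp5 stood furthest above the markers in epicardial-like cells, the sheet that covers the heart. It was 1385, 1326 and 1322 CPM in control and 1529, 1531 and 1124 CPM in Dsp_het libraries, 70.2% ± 10.7 of the endothelial-like level and above the marker share in 6 of 6 libraries. Fabp4 was at 595 ± 390 CPM, so that the ratio of Fabp4 to Fabp5 was 0.43 ± 0.29 in these cells, against 11.4 in endothelial-like cells. After thinning, 69.6% of 553 epicardial-like cells had a Fabp5 UMI (95% interval 65.6% to 73.4%) and 3.07% a Cdh5 UMI, and 70.7% and 4.45% of 1573 cells did so without thinning. Mgll, at 11.8% ± 2.39, and Lpl, at 8.13% ± 2.57, also had means above that of the markers, by less than Fabp5. In control replicate 1 alone, the epicardial-like cells held adipocyte markers, 218 CPM summed against at most 1.96 CPM in the other 5 libraries, and Fabp5 there was within the range of the others.

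Cd36 and Lpl stood above the markers in macrophage-like cells, in 6 of 6 libraries each. Cd36, a scavenger receptor on macrophages, was 404 ± 157 CPM, 15.5% ± 4.59 of the endothelial-like level, and Lpl was 130 ± 38.8 CPM, 23.3% ± 10.4. After thinning, 35.2% of 199 macrophage-like cells had a Cd36 UMI (95% interval 28.6% to 42.2%), against 9.05% with a Cdh5 UMI, and without thinning the shares were 37.8% and 8.25% of 630 cells. An Lpl UMI was found in 13.6% of the thinned cells (9.14% to 19.1%) and 19.7% of the unthinned cells, so by this share Lpl was less clear of Cdh5 than Cd36 was. Fabp4 (7.74% ± 3.71), Fabp5 (7.76% ± 3.48) and Gpihbp1 (7.75% ± 3.15) were near the markers. Only 4 libraries kept at least 20 of these cells with 1 library per barcode, where Cd36 was 13.7% ± 3.40 and Lpl 19.2% ± 10.3 of the endothelial-like level.

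**Figure D3:**
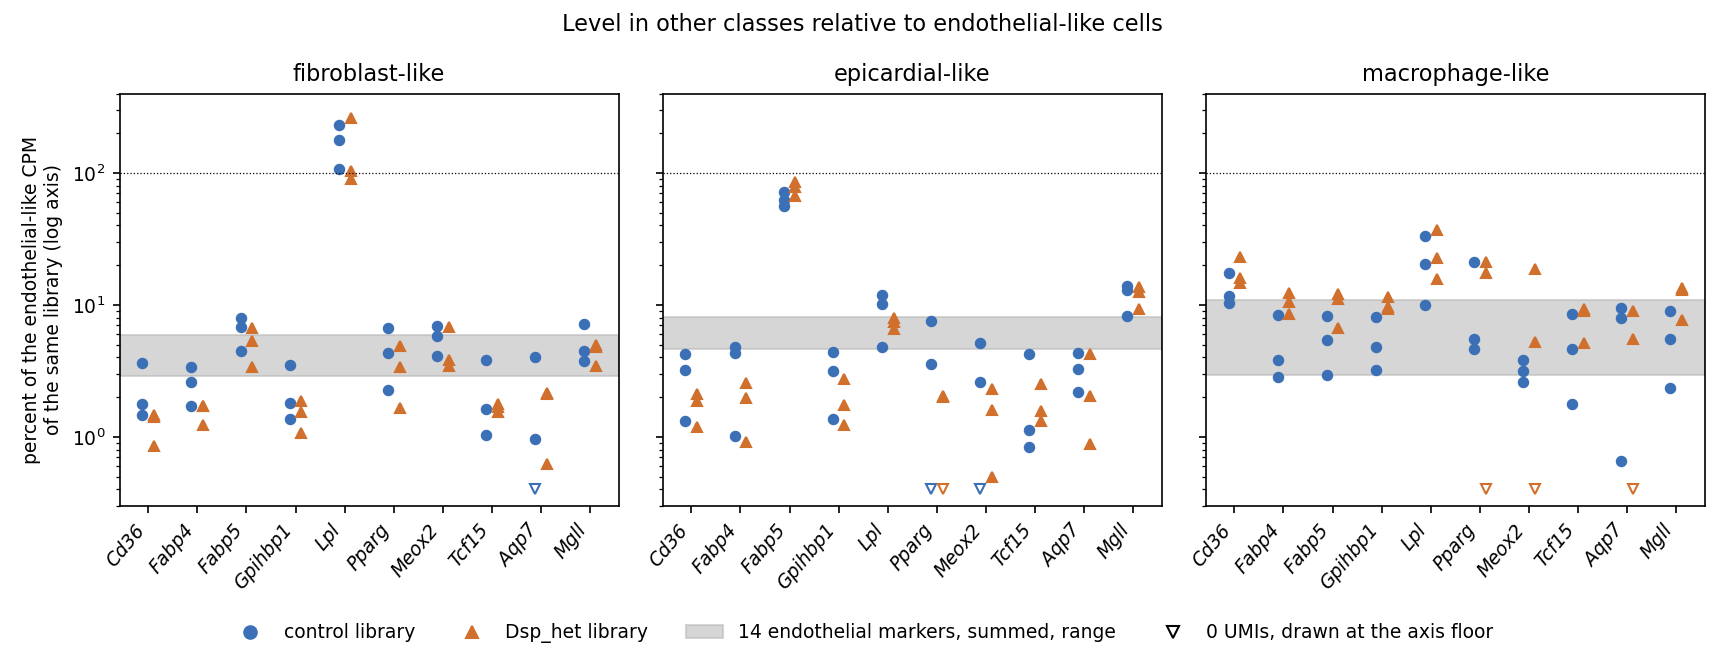
Level of each gene in fibroblast-like, epicardial-like and macrophage-like cells as a percent of the endothelial-like CPM of the same library, on a log axis, 1 point per library, with the range of 14 endothelial markers summed as a grey band and the dotted line at 100%. Lpl in fibroblast-like cells (90.2% to 263%) and Fabp5 in epicardial-like cells (56.5% to 85.8%) lie above the band in all 6 libraries.

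The genotype comparison asked whether loss of 1 functional Dsp allele in cells with Wt1-driven Cre went with a change of these genes. It was run on the UMIs summed per library in 14 sets of cells: all kept cells, endothelial-like cells, 7 endothelial-like clusters and 5 other classes. With edgeR's quasi-likelihood test and Benjamini-Hochberg adjustment over all genes, none of the 10 genes passed an adjusted p of 0.05 in any of the 14. DESeq2 called none of them either, and the number with an unadjusted p under 0.05 by edgeR was 0 to 4 in each set. By edgeR at most 0.15% of all genes passed in any set, and these comparisons do not show that the 10 genes are unchanged.

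In all kept cells, 9 of the 10 genes were lower in Dsp_het; their log2 fold changes had a median of -0.39, against -0.01 over the 13149 genes tested, of which 5 (0.038%) passed. That count was 330 without Dsp_het replicate 2, 17 without Dsp_het replicate 1, 1 without Dsp_het replicate 3 and 0 without any of the control libraries in turn, with none of the 10 genes among them. Unadjusted p was under 0.05 for 2 members, with no share of all genes at that cut set beside them. Fabp5 was 1955, 1545 and 1818 normalized CPM in control and 1278, 1482 and 1208 in Dsp_het libraries, a log2 difference of -0.42 ± 0.13 (SE) with an adjusted p of 0.226 by edgeR. Mgll was 1030.36, 1125 and 1228 normalized CPM in control and 708, 1030.04 and 944 in Dsp_het libraries, -0.34 ± 0.16 with an adjusted p of 0.394 by edgeR. In both genes every Dsp_het library lay below every control library, by a narrow margin for Mgll, which was so for 8.31% of all genes. Lpl, which fibroblast-like cells share, was at 0.04 ± 0.16.

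The makeup of the libraries differed too, more clearly by cells than by UMIs. Endothelial-like cells made up 69.5%, 70.0% and 62.7% of kept cells in control and 58.5%, 57.8% and 52.3% in Dsp_het libraries (exact permutation test, two-sided p = 0.1, the smallest that 3 against 3 allows). Of the UMIs, which the sums consist of, they held 74.3%, 69.8% and 63.8% in control and 48.7%, 66.6% and 51.6% in Dsp_het libraries. These UMI shares overlapped between the groups (exact permutation test, two-sided p = 0.2). All 14 endothelial markers were lower as well, with a median of -0.33, as were 13 of 13 macrophage markers (median -0.70) and 9 of 9 pericyte markers (median -0.47), while 9 of 12 cardiomyocyte markers were higher (median 0.34). The macrophage markers summed reached 2386 to 2736 CPM in control and 326, 1290 and 3111 CPM in Dsp_het libraries, and the pericyte markers 232 to 818 and 181 to 710 CPM, so both overlapped between the groups. The cardiomyocyte markers summed reached 383, 453 and 532 CPM in control and 242, 974 and 323 CPM in Dsp_het libraries. Only Dsp_het replicate 2 lay above the control range, and the other Dsp_het libraries lay below it. Fibroblast-like cells made up 7.43% to 9.67% of control and 13.3% to 21.0% of Dsp_het libraries, and epicardial-like cells 7.32% to 8.07% and 10.9% to 13.8%. The part of these lists in the shift was not tested. A sum over all cells cannot tell fewer cells of a type from less RNA of a gene per cell.

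Within endothelial-like cells 7 of the 10 genes were lower and the median was -0.07, against 0.00 over 11303 genes of which 0 (0%) passed by edgeR, 527 had an unadjusted p under 0.05, and 15 passed with DESeq2. No member had an unadjusted p under 0.05 there and none had groups apart, against 3.9% of all genes that lay lower and 4.46% that lay higher in every Dsp_het library. The extremes were Cd36, at 2666, 2619 and 2060 normalized CPM in control and 2505, 3093 and 2598 in Dsp_het libraries (0.16 ± 0.14, adjusted p = 1.00 by edgeR), and Fabp5, at 2370, 1831 and 2250 in control and 1955, 1800 and 1667 in Dsp_het libraries (-0.25 ± 0.13, adjusted p = 1.00 by edgeR). The groups overlapped in both. The other 8 genes lay between -0.15 ± 0.16 (Aqp7) and 0.08 ± 0.12 (Meox2). Cardiomyocyte markers, RNA of the cells removed before the sort, were lower in these sums in 12 of 12 cases, at 277 to 390 CPM summed in control and 246 to 289 CPM in Dsp_het libraries. Macrophage markers were lower in 5 of 5 cases tested (median -0.62; 25.5 to 33.7 CPM summed in control and 9.15 to 32.9 CPM in Dsp_het libraries) and pericyte markers in 6 of 6 (median -0.45; 85.7 to 217 and 58.5 to 174 CPM). The part of these lists in the differences was not tested.

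**Figure D4:**
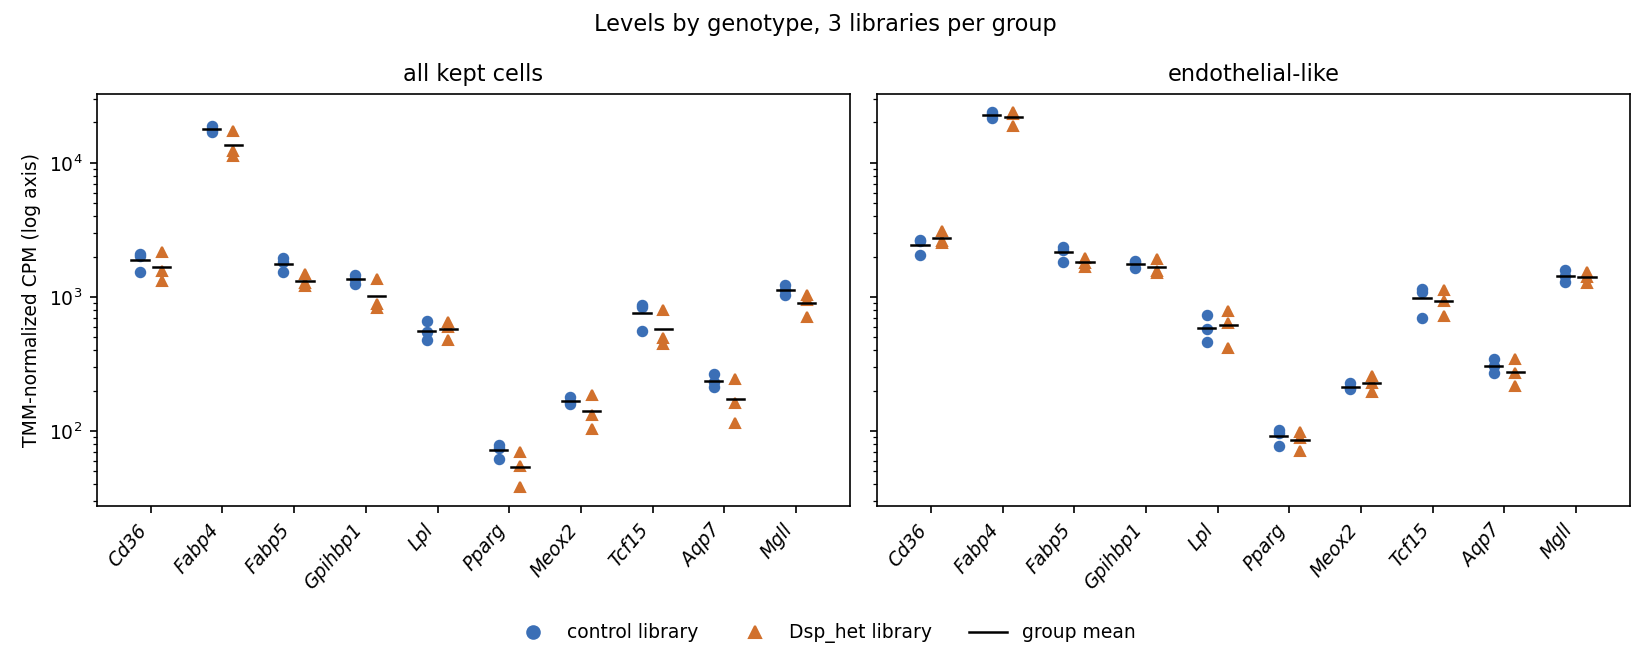
TMM-normalized CPM of the 10 genes by library in all kept cells and in endothelial-like cells, on a log axis, with circles for control, triangles for Dsp_het and bars for group means. In all kept cells the Fabp5 and Mgll points of the groups do not overlap, and in endothelial-like cells the groups overlap for all 10 genes.

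Set against Cdh5, a junction gene of endothelium, Cd36 did separate the groups. The ratio of Cd36 to Cdh5 UMIs in endothelial-like cells was 2.10, 2.14 and 1.88 in control and 2.41, 2.66 and 2.53 in Dsp_het libraries (exact permutation test, two-sided p = 0.1, the smallest possible, adjusted p = 0.5 over 5 ratios). In capillary cells it was 2.04, 2.23 and 2.01 in control and 2.50, 2.66 and 2.69 in Dsp_het libraries. The groups were apart in 5 of 7 clusters and overlapped in the angiogenic cluster (control up to 2.05, Dsp_het from 2.04) and in the venous cluster (control up to 2.80, Dsp_het from 2.54). Cdh5 was itself at -0.15 ± 0.12 in the endothelial-like fit, so both genes contribute to the ratio. Among other endothelial markers, Pecam1 was at -0.01 ± 0.12 and Kdr at -0.21 ± 0.12 in that fit, and ratios to them were not taken. The share of all genes whose ratio to Cdh5 parts the groups was not taken either, so the separation cannot be called particular to Cd36. The ratios of Fabp4 to Fabp5 (10.7 ± 0.98 in control and 12.1 ± 0.96 in Dsp_het), Lpl to Gpihbp1, Cd36 to Fabp4 and Lpl to Cdh5 overlapped between the groups in endothelial-like cells.

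Across the 7 endothelial-like clusters that could be tested, Cd36 was higher in Dsp_het in 7 of 7, by 0.11 to 0.38 on the log2 scale (without Dsp_het replicate 2 it was -0.00037 in the angiogenic and -0.012 in the venous cluster, and without control replicate 3 it was -0.010 in the venous cluster), and Fabp5 was lower in 6 of 7, from -0.41 to 0.05. No member had groups apart in any of these clusters. Among all genes, the shares lower and higher in every Dsp_het library were 4.37% and 4.17% in angiogenic, 4.29% and 4.41% in arterial, 4.21% and 4.74% in capillary and 4.46% and 4.51% in interferon cells. They were 3.78% and 4.39% in Cyp26b1/Timp4, 5.16% and 4.6% in Lars2/Syne1 and 3.84% and 4.35% in venous cells. The clusters come from the same libraries and are not separate replicates. In the capillary cluster 6 of 10 genes were lower with a median of -0.02, and 1 of 9031 genes (0.0111%) passed. The widest differences there were Lpl at 0.25 ± 0.22 and Fabp5 at -0.26 ± 0.15, and Cd36 was at 0.19 ± 0.14. In the arterial cluster Cd36 was at 0.38 ± 0.15 with an unadjusted p under 0.05 and an adjusted p of 0.994 by edgeR. It was read at 2645, 2045 and 1879 normalized CPM in control and 2565, 2988 and 3014 in Dsp_het libraries, so control replicate 1 lay inside the Dsp_het range. By edgeR, 0 genes (0%) passed in each of the arterial, venous, angiogenic, interferon, Cyp26b1/Timp4 and Lars2/Syne1 clusters, where 254 to 314 had an unadjusted p under 0.05 and DESeq2 called 0 to 2.

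Whether the genotype difference itself varied between vessel types was tested as an interaction with library as a block. Between arterial and capillary cells 0 of 8035 genes (0%) passed by edgeR, with 335 at an unadjusted p under 0.05 and no DESeq2 fit of this contrast, and Cd36 had a difference of 0.18 ± 0.09 (adjusted p = 0.998 by edgeR). Between venous and capillary cells 4 of 8953 genes (0.0447%) passed, none of them a member. Lpl had the widest difference of the 10, at -0.43 ± 0.17 (adjusted p = 0.973 by edgeR). Without control replicate 1, in which capillary Lpl was 1116 CPM and venous Lpl 238 CPM, it was -0.92 ± 0.16 with an adjusted p of 0.00258 by edgeR. In that fit 2 of 9006 genes passed. Without control replicate 2 the Lpl difference was -0.08 ± 0.15. The lymphatic content of the venous cluster differed as well: 7 of 7 lymphatic markers had a lower mean in Dsp_het, and their sum was 380, 782 and 1023 CPM in control and 225, 598 and 53.2 CPM in Dsp_het libraries. The part of these cells in the venous values was not tested.

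In the fibroblast-like, epicardial-like, macrophage-like and pericyte-like classes most of the 10 genes differed in the same direction as the endothelial markers. In fibroblast-like cells 8 of 8 genes tested were lower in Dsp_het, with a median of -0.61, and 10 of 12 endothelial markers were lower too, with a median of -0.42. Of 8777 genes, 1 (0.0114%) passed. Fabp4 was 421, 595 and 759 normalized CPM in control and 410, 407 and 231 in Dsp_het libraries (-0.75 ± 0.23), groups that did not overlap, as for 3.79% of genes in that direction and 4.18% in the other. Lpl, the gene these cells hold themselves, was at -0.21 ± 0.20 with groups that overlapped. Pparg and Aqp7 were too low to be tested.

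In epicardial-like cells 7 of 8 genes tested were lower, with a median of -0.61, as were 11 of 12 endothelial markers, with a median of -0.29, and 0 of 8741 genes (0%) passed by edgeR, with 298 at an unadjusted p under 0.05 and 1 called by DESeq2. Fabp4 was at -0.93 ± 0.43 and Gpihbp1 at -0.84 ± 0.33, and Fabp5, the gene furthest above the markers in this class, was at 0.08 ± 0.14. None had groups apart, against 4.05% of all genes lower and 4.23% higher in every Dsp_het library. In macrophage-like cells the direction was the reverse: 7 of 8 genes were higher with a median of 0.52, and 11 of 12 endothelial markers were higher with a median of 0.47, while 1 of 5278 genes (0.0189%) passed. Cd36 was 299, 336 and 368 normalized CPM in control and 383, 742 and 426 in Dsp_het libraries (0.66 ± 0.21, adjusted p = 0.628 by edgeR), apart by a small gap, as 5.29% of genes were in that direction and 6.14% in the other. Fabp4 was at 0.95 ± 0.27, with control replicate 3 inside the Dsp_het range. Without that library Fabp4 was at 1.51 ± 0.23, Mgll at 1.48 ± 0.33 and Gpihbp1 at 1.18 ± 0.26, with adjusted p of 0.00157, 0.042 and 0.0384 by edgeR. The number of all genes that passed in that fit is not set beside them. Only its range over the left-out libraries is given, in the closing section. The part of endothelial RNA in these differences was not tested. With 1 library per barcode, 48, 33 and 65 macrophage-like cells were left in control and 2, 18 and 39 in Dsp_het libraries. Most of the 101 and 128 macrophage-like cells in Dsp_het replicates 1 and 2 were therefore copies. The part of copies in the macrophage-like differences was not tested.

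In pericyte-like cells 8 of 10 genes were higher, with a median of 0.22, as were 10 of 13 endothelial markers, with a median of 0.23, and 5 of 3334 genes (0.15%) passed. Mgll had groups that did not overlap, as for 6.69% of genes in that direction and 6.21% in the other, at 1243, 1121 and 1301 normalized CPM in control and 1411, 1354 and 1544 in Dsp_het libraries. Cd36 was at 0.50 ± 0.17 (adjusted p = 0.275 by edgeR), and without Dsp_het replicate 1 it was at 0.68 ± 0.16 with an adjusted p of 0.0247 by edgeR. For that fit too, only the range of all genes passing over the left-out libraries is given, in the closing section. With 1 library per barcode, 25, 39 and 135 pericyte-like cells were left in control and 11, 13 and 34 in Dsp_het libraries. The part of copies in the pericyte-like differences was not tested. In cycling cells 8 of 9 genes tested were lower, and 0 of 3165 genes (0%) passed by edgeR, with 135 at an unadjusted p under 0.05 and 1 called by DESeq2. Lpl was the only one there with groups apart, as for 5.21% of genes in the lower direction and 5.12% in the higher.

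**Figure D5:**
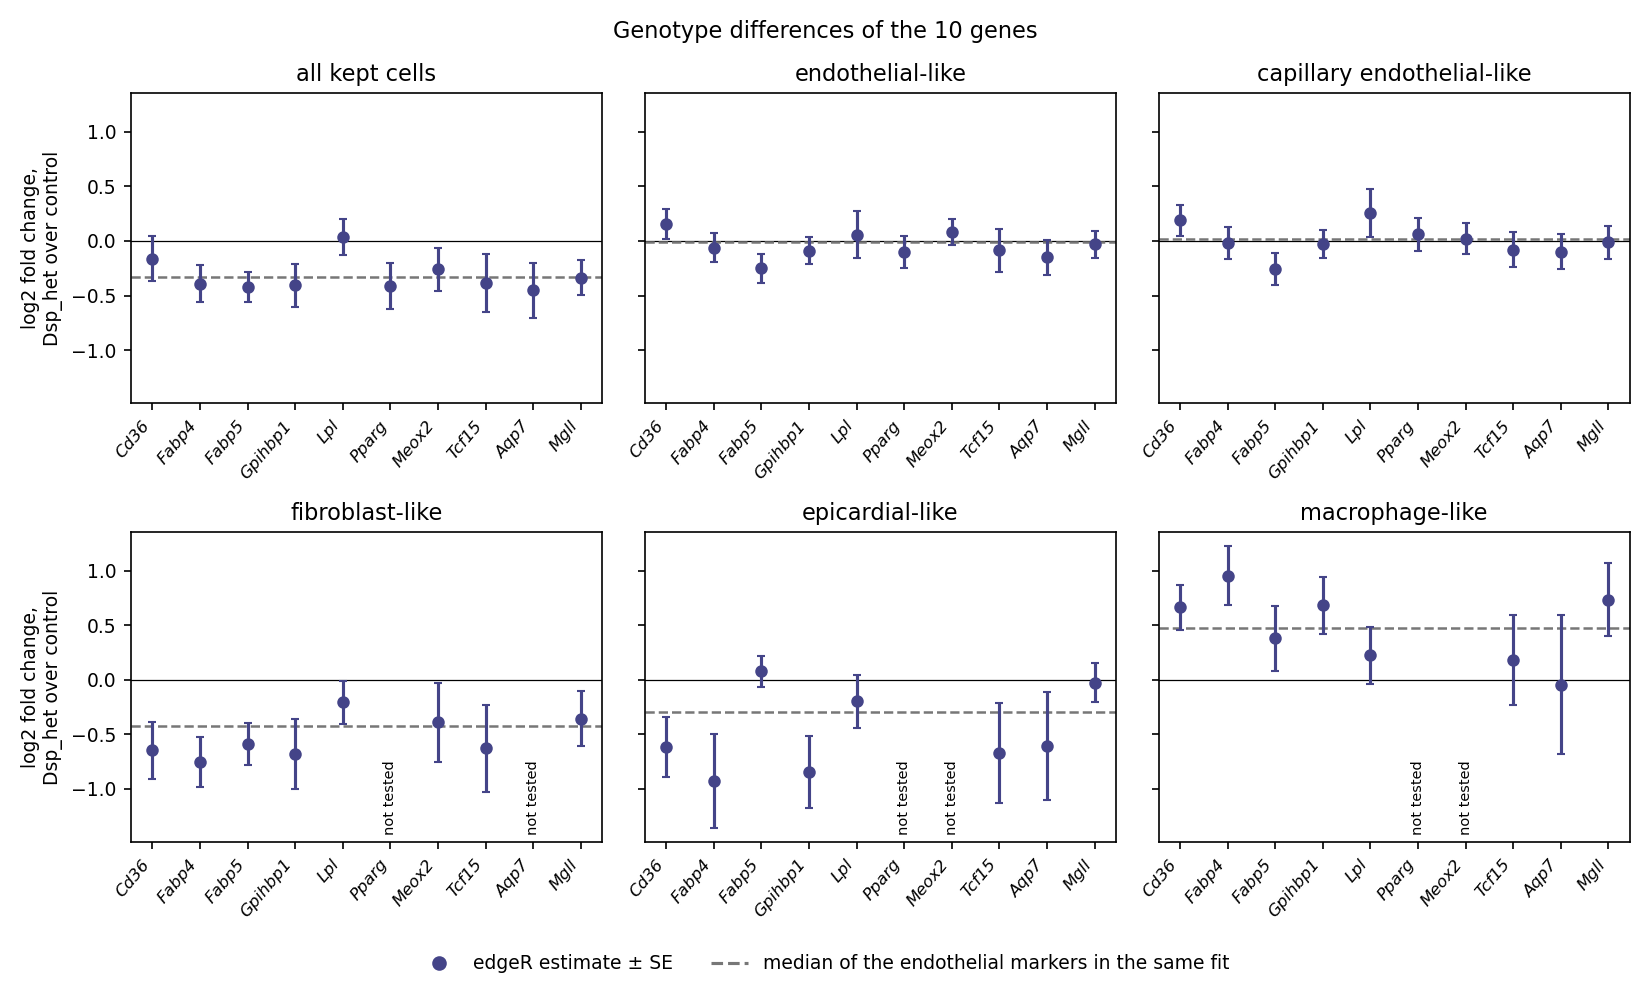
Log2 fold change of Dsp_het over control (edgeR estimate ± SE) for the 10 genes in 6 sets of cells, with the median of the endothelial markers in the same fit as a dashed line. In all kept cells, fibroblast-like, epicardial-like and macrophage-like cells most estimates lie on the same side of 0 as the dashed line, and in endothelial-like and capillary cells they scatter around it.

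The wider pathway was tested in the same fits. Of 108 other genes of lipases, uptake, regulation, storage and oxidation, 86 could be tested in all kept cells and 79 in endothelial-like cells, and none passed in any of the 14 comparisons by edgeR. At an unadjusted p under 0.05 there were 21 in all kept cells and 2 in endothelial-like cells. No share of all genes at that cut is set beside the 21, so they cannot be read as a trait of the pathway. In all kept cells 8.31% of all genes lay lower and 11.3% higher in every Dsp_het library. DESeq2 called 10 of 96 in all kept cells, where it called 462 of all 15878 genes (2.91%), and 0 in each of the other 13 sets. In endothelial-like cells 43 were lower and 36 higher, with a median of -0.01. By role, the medians there were 0.03 for 17 lipases and their partners, -0.05 for 16 genes of uptake and binding, -0.04 for 23 regulators and -0.02 for 23 genes of storage and oxidation. Across the 7 endothelial-like clusters tested, the number of storage and oxidation genes lower in Dsp_het ran from 5 of 17 in Cyp26b1/Timp4 cells (median 0.09) and 9 of 19 in venous cells (0.01) to 17 of 19 in capillary cells (-0.13), where the median over all genes was 0.00 and 8 of 8 cardiomyocyte markers were lower (-0.99). The medians were lower still in Lars2/Syne1 cells (11 of 15 lower, -0.25) and arterial cells (11 of 18 lower, -0.14). None of the storage and oxidation genes passed, and the part of cardiomyocyte RNA in the capillary count was not tested.

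The 5 genes of that list with the highest level in endothelial-like cells were Klf2 (1869 ± 226 CPM), a flow-responsive factor, Cav1 (1589 ± 130), which builds caveolae, Tcf4 (1497 ± 94.0), a partner of basic helix-loop-helix factors, Aqp1 (1070 ± 188), a water channel, and Flt1 (921 ± 105), a receptor for VEGFA and VEGFB and also a marker in the endothelial list.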

How the data were processed

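The single-cell UMI counts were deposited by the authors as 1 matrix of whole-number counts per gene and barcode, not normalized, with the total per barcode beside it. Barcodes were assigned to the 6 libraries by the number that the labels give each sample, and 0 barcodes were left unassigned. The submitters' processing notes name GRCm38 and Seurat; other upstream steps are not stated in the labels.

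Cells needed 500 UMIs and 200 genes or more, with mitochondrial counts of 20% or less. A doublet caller run in each of the 6 libraries marked 35 cells (0.214%), too few to have worked, so doublets remain. Cells were clustered with scanpy 1.11.5 (2000 variable genes without the 10 genes and the lipid list, 30 components, 15 neighbours, Leiden resolution 1.0). Clusters were named from fixed markers; the scoring rule was adjusted after the clusters were seen. The members and lists were chosen with earlier results of these data known.

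Counts were summed per library and set of at least 20 cells and tested with edgeR 4.0.16 (TMM, quasi-likelihood, minimum count 10, two-sided, adjusted over all genes, threshold 0.05) in R 4.3.3, after tests on simulated data, with DESeq2 1.42.0 as an alternative. The 10 genes were named by rule in every comparison, and the 3 most similar genes by Pearson r of log2(CPM + 5). Shares of cells were taken after thinning to 2000 UMIs. Whether libraries came from separate mice is not given. Alternatives were another normalization, no filter, deeper cells, 1 library per barcode, a replicate block, each library left out, and a sex term added after the data were seen. Gene spans and promoters came from GENCODE and RefSeq tables on GRCm38; 5 of 10 members had a promoter entry. Intervals cover counting error only.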

Additional observations from a re-analysis of the deposited data

How the results depend on the processing

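None of the 10 genes was called in any comparison with DESeq2, RLE size factors, 1 library per barcode, at least 1000 UMIs per cell or the replicate block. Without a filter on low counts Fabp4 passed in epicardial-like (-0.90, adjusted p = 1.8e-05), fibroblast-like (-0.74, adjusted p = 0.00095) and macrophage-like cells (0.87, adjusted p = 3.3e-05) by edgeR, 1 member in each, and with a sex term it passed in macrophage-like cells (1.04, adjusted p = 0.00178). Over all 14 sets, the members' log2 fold changes changed sign in 25 of 998 fits under settings other than leaving out a library, 12 of them with the members among the variable genes, and in 121 of 792 fits with a library left out; the cause was not tested. Values were followed 1 by 1 for all members in the 6 sets of the fold-change plot, for Cd36 and Fabp5 in the other sets but cycling cells, and for a few further members. Of these, 544 kept their direction and side of the threshold under settings other than leaving out a library, 9 changed sign and 4 passed the threshold. Those 9 were small: Mgll in epicardial-like cells was at 0.0073 with no filter, 0.0024 with the sex term, 0.059 with 1 library per barcode and 0.061 with at least 1000 UMIs, Aqp7 in macrophage-like cells was at 0.054 with the sex term, Meox2 in capillary cells was at -0.0032 with the replicate block, and with the members among the variable genes Aqp7 (0.032) and Mgll (0.024) in capillary cells and Fabp5 (-0.015) in Lars2/Syne1 cells changed sign.

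Of the mean CPM values under other cell sets, 377 moved by less than the spread between libraries and 13 by more. Of the shares of cells with a UMI, 181 moved by at least the SD between libraries without thinning or with thinning to 1000 UMIs, and 59 moved by less. Counts of all genes called varied more. Without the filter they were 203 in all kept, 192 in endothelial-like, 42 in epicardial-like, 74 in fibroblast-like, 40 in macrophage-like, 33 in pericyte-like and 35 in cycling cells, and 23, 17, 26, 23, 20, 15 and 42 in the angiogenic, arterial, capillary, interferon, Cyp26b1/Timp4, Lars2/Syne1 and venous clusters. DESeq2 called 462 in all kept and 15 in endothelial-like cells, 1 each in cycling, epicardial-like, pericyte-like and angiogenic cells, 2 each in capillary and venous cells and 0 in macrophage-like cells. With the replicate block the counts were 0 in all kept, 12 in endothelial-like, 5 in fibroblast-like, 0 in macrophage-like, 1 in pericyte-like and 1 in cycling cells, and 5, 4, 1, 11, 3 and 7 in arterial, capillary, interferon, Cyp26b1/Timp4, Lars2/Syne1 and venous cells. Same-numbered libraries had correlations of their deviations from -0.09 to 0.10, and other pairs from -0.15 to 0.19. With 3 libraries per group, such values cannot settle whether the numbers pair the libraries. With the sex term, added after the data were seen, the counts were 1 in all kept, 3 in endothelial-like, 2 in fibroblast-like, 9 in macrophage-like (with 1 member), 8 in pericyte-like, 4 in capillary, 1 in interferon, 5 in Cyp26b1/Timp4 and 2 in venous cells. With 1 library per barcode, and likewise with at least 1000 UMIs, they were 0 in all kept, 1 in Lars2/Syne1 and 2 in venous cells, and the former left 2 for the venous against capillary difference. RLE size factors gave 0 in macrophage-like cells. With the members among the variable genes, 0 passed in macrophage-like, 9 in pericyte-like, 2 in arterial, 2 in capillary and 1 in Lars2/Syne1 cells. That clustering held no Cyp26b1/Timp4 cluster, and too few cells were left for 1 library per barcode in cycling, macrophage-like and pericyte-like cells and for at least 1000 UMIs in cycling and macrophage-like cells.

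Leaving out each library in turn gave 0 to 330 genes called in all kept cells and 0 to 11 in endothelial-like cells, both highest without Dsp_het replicate 2, and 0 to 2 in epicardial-like, 0 to 5 in fibroblast-like, 0 to 18 in macrophage-like and 0 to 29 in pericyte-like cells. The ranges were 0 to 1 in angiogenic, 0 to 6 in arterial, capillary and interferon, 0 to 7 in Cyp26b1/Timp4 and venous and 0 to 10 in Lars2/Syne1 cells, 0 to 3 for the arterial and 1 to 8 for the venous difference from capillary. Members called ran from 0 to 3 in macrophage-like cells and 0 to 1 in pericyte-like cells and the venous difference. Most sign changes fell in the clusters, from 6 of 60 fits in Cyp26b1/Timp4 to 18 of 60 in arterial cells. Those among the values followed 1 by 1 ranged as follows. In all kept cells Lpl ranged from -0.073 to 0.165. In endothelial-like cells the ranges were -0.28 to 0.065 for Tcf15, -0.12 to 0.035 for Fabp4, -0.098 to 0.054 for Mgll, -0.22 to 0.018 for Pparg, -0.16 to 0.27 for Lpl and -0.020 to 0.18 for Meox2. In capillary cells they were -0.25 to 0.032 for Tcf15, -0.065 to 0.048 for Fabp4, -0.25 to 0.083 for Aqp7, -0.21 to 0.077 for Mgll, -0.050 to 0.16 for Pparg, -0.13 to 0.15 for Meox2 and -0.085 to 0.028 for Gpihbp1. Tcf15 ranged from -1.09 to 0.93 in epicardial-like, -0.96 to 0.41 in fibroblast-like and -0.29 to 1.13 in macrophage-like cells. Mgll ranged from -0.19 to 0.13 in epicardial-like and -0.52 to 0.053 in fibroblast-like cells, and Aqp7 from -0.59 to 0.33 and Lpl from -0.067 to 0.56 in macrophage-like cells. Meox2 ranged from -0.68 to 0.24 in pericyte-like cells, Cd36 from -0.00037 to 0.22 in angiogenic and -0.012 to 0.32 in venous cells, Fabp5 from -0.24 to 0.039 in arterial and -0.17 to 0.21 in Lars2/Syne1 cells, and Lpl from -0.067 to 0.40 in arterial and -0.45 to 0.15 in venous cells. The capillary share of endothelial-like UMIs, Dsp_het minus control, ranged from -0.013 to 5.36 percentage points around 2.46.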
